A study of Mus musculus with 6 samples.

Results

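Heat shock proteins and J-domain chaperones were measured at 4 h and 16 h in synchronized mGLUTag cells, an immortalized murine line derived from a male and used as a model of the GLP-1-secreting L-cell. Members were taken by gene symbol, as every probe named for an HSPA, HSPB, HSPD, HSPE, HSPH or HSP90 protein, for a heat shock factor, or for a numbered DNAJA, DNAJB or DNAJC protein, with Hspa5, Hsp90b1, Dnajb9, Dnajb11 and Dnajc3 of the endoplasmic reticulum left out. This gave 119 of the 45281 probes on the array, which name 66 genes among the 30854 gene symbols listed. All 6 samples had been kept in low serum, exposed to forskolin, an activator of adenylyl cyclase, and returned to growth medium, and none was left unsynchronized. RNA was collected at 4 h (n = 3) and 16 h (n = 3), which the study set as the peak and trough of Arntl, the gene of the clock factor BMAL1. The samples come from a single cell line, carry no genetic change between groups, and are not stated to be independent cultures, so that p-values measure the spread between samples that may be technical.

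Proteins of the HSP70 family bind exposed hydrophobic stretches of other proteins and release them in a cycle driven by ATP, and J-domain proteins deliver substrates to HSP70 and stimulate its ATPase. HSP110 proteins exchange the nucleotide, HSP90 acts later on clients such as kinases and steroid receptors, small heat shock proteins hold unfolded clients without ATP, and the HSP60 chaperonin folds proteins inside mitochondria. Heat shock factor 1 (HSF1) drives the stress-inducible members through heat shock elements in their promoters, while other members, such as Hspa8 and Hsp90ab1, are made constitutively.

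The name of the group fits only some of its members. Of the 66 genes, 8 encode proteins of the mitochondrion and 6 encode proteins of the endoplasmic reticulum, by textbook location. A probe was counted as detected on an array where it exceeded the noise limit of that array, a bound of 9.2 to 14 intensity units set from the scatter of values below 0. Among the 5 genes taken to mark the group, Hspa8, Hsp90aa1 and Hsp90ab1 were detected on all 6 arrays. Hspa1b, the heat-inducible HSP70, was detected on 3 arrays at its best probe and on none at its other probe. Hsph1 is not a member, since the array lists it under its older name HSP105. It was detected on all 6 arrays, with a mean intensity of 2818 at 4 h and 1987 at 16 h, and its difference on the log2 scale was 0.04 (SE 0.14, limma, adjusted p = 0.989).

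Heat shock elements, which HSF1 binds, were searched in the promoters of the members. They are reference context, since no binding was measured in these samples. A RefSeq window of 250 bases before to 50 bases after a transcription start (GRCm38.p6) was at hand for 51 of the 66 genes, in 66 windows, and for 27025 genes in all. A heat shock element was searched as GAANNTTCNNGAA or TTCNNGAANNTTC, which are reverse complements, so that both strands were covered. It was found at Dnajb6, Hspd1 and Hspe1, which is 5.88% of the member genes with a window, against 0.662% of all genes. The shorter pair of units, GAANNTTC or TTCNNGAA, is held within every such element and was found at 15 of the 51 member genes (29.4%) against 17% of all genes. The E-box bound by BMAL1, CACGTG, occurred at 6 of the 51 (11.8%; Dnajc1, Dnajc16, Dnajc8, Hsf2, Hspbap1 and Hspd1) against 8.09% of all genes. The cAMP response element TGACGTCA occurred at 1 of the 51 (1.96%; Dnajc27) against 2.03%. These matches describe letters within a window only. The stretches below end at the base before the start, run 5′ to 3′ on the strand of the gene, and show in capitals the heat shock element of Hspe1 and Dnajb6 and the shorter pair of units of Hspa1b. Hspe1 was chosen for its divergent partner, Dnajb6 for the only other element among the members with a window, and Hspa1b as the inducible marker. They lie at chr1:55087938-55088147 (+), chr5:29735798-29735897 (+) and chr17:34959239-34959388 (−).
Hspe1: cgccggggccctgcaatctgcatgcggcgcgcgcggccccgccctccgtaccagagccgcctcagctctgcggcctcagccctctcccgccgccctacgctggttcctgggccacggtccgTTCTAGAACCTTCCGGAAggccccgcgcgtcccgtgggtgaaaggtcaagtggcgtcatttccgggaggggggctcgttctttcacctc
Dnajb6: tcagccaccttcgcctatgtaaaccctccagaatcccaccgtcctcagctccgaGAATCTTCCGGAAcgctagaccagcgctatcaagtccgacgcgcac
Hspa1b: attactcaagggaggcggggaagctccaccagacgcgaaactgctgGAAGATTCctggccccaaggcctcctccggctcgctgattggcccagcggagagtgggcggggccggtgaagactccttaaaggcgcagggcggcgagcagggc

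The capitals of Hspe1 begin 89 bases before its start and hold overlapping elements. Hspd1, which encodes HSP60, is transcribed the other way from the opposite strand, and one of its windows shares 285 bases with that of Hspe1, so the same letters were counted for both. The pair of units in Hspa1b begins 104 bases before its start, and a similar pair lies 124 bases before the start of Dnaja1.

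Each array detected 16964 to 17847 probes. In deposited intensity the arrays were brighter at 4 h (mean 291 to 354) than at 16 h (mean 216 to 246), a difference that the between-array normalization removes. Of 7 markers of the L-cell, 6 were detected on 3 or more arrays, Gcg among them, and Pcsk1 on 1 array. By the same measure markers of fibroblasts were detected for 1 of 6 genes (Col1a1, at a mean of 27.8 and 20.9 units). Goblet cell markers were detected for 1 of 3 (Tff3, at a mean of 765 and 647 units). Those of leukocytes, enterocytes and endothelium were detected for none. Ptprc, Alpi and Muc2 were detected on no array, whereas Tff3 was read on all 6. Arntl, by which the times were chosen, had a mean of 127 units at 4 h and 43.5 at 16 h, without overlap (log2 change 0.52, SE 0.069, limma adjusted p = 0.138). The arrays differed in the mean log2 signal of their 18S ribosomal RNA probes. It was 8.50, 10.57 and 9.24 on 4 h replicates 1 and 3 and 16 h replicate 1, taken as rich in 18S. On 4 h replicate 2 and 16 h replicates 2 and 3 it was 6.91, 7.71 and 7.02. These values are graded, so the 18S separation is a chosen cut between 7.71 and 8.50. Each set holds arrays of both time points, but the rich set holds more arrays of 4 h than of 16 h.

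Of the 66 member genes, 37 were detected on all 6 arrays at their brightest probe, 44 on 3 or more, 3 on 1 or 2, and 19 on none. Both HSP90 genes, both HSP110 genes and both chaperonin genes were read on every array. In the HSP70 family, 4 of 10 genes were read on 3 or more arrays, and Hspa12a, Hspa13, Hspa14 and Hspa1l were on none. For the small heat shock proteins the count was 3 of 7, with Hspb2, Hspb3, Hspb7 and Hspb9 on none. Among the J-domain proteins, all 3 DNAJA genes, 5 of 11 DNAJB genes and 19 of 23 DNAJC genes were read on 3 or more arrays. Dnajb14, Dnajb3, Dnajb5, Dnajb7, Dnajb8, Dnajc1, Dnajc5b, Dnajc5g and Dnajc9 were read on none, nor were the heat shock factor Hsf5 and Hsf2bp, which is named for its partner HSF2. A value under the limit does not show that a transcript is absent, and these genes are given no change.

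**Figure D1:**
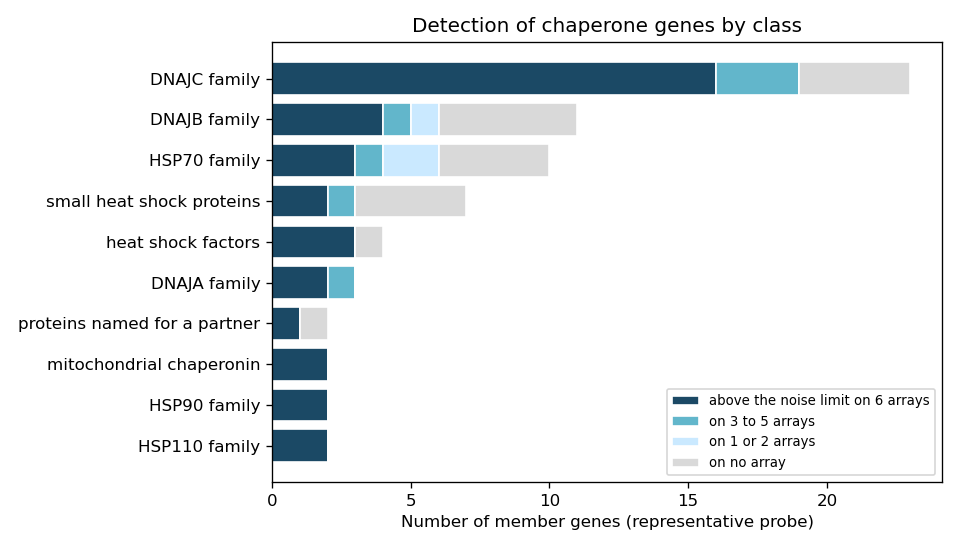
Number of member genes in each class (horizontal axis) by how many of the 6 arrays detected the brightest probe of the gene. All genes of the HSP90, HSP110 and chaperonin classes were read on 6 arrays, whereas 4 of 10 HSP70 genes and 3 of 7 small heat shock protein genes were read on 3 or more.

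Whether chaperone transcripts differed between the time points was examined with limma across the whole table. No member probe passed a Benjamini-Hochberg adjusted p of 0.05 in either direction. The background was 2 probes higher at 4 h (0.00442%) and 2 lower (0.00442%) of the 45281 tested, and the smallest adjusted p among the members was 0.648. At an unadjusted p under 0.05 there were 3 member probes higher at 4 h (2.52%, against 2.82% of all probes) and 4 lower (3.36%, against 2.6%). Groups without overlap were seen for 5 probes higher at 4 h (4.2%, against 5.54%) and 4 lower (3.36%, against 5.38%). Within the 67 member probes detected on 3 or more arrays, 6 did not overlap (8.96%, against 11.4% of all such probes), and 6 had an unadjusted p under 0.05 (8.96%, against 10.3%). Within the 59 read on all arrays, 6 did not overlap (10.2%, against 11.6%) and 5 had an unadjusted p under 0.05 (8.47%, against 10.9%). The shares among the members thus lay near those of the array as a whole. In RNA from whole cultures, fewer cells that express a gene and less RNA per cell cannot be told apart.

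Log2 changes are given as 4 h minus 16 h, relative to the other probes of an array. For the 44 genes detected on 3 or more arrays, the median was -0.0052, with 21 values above 0 and 23 below. The median over the 59 member probes read on all arrays was 0.0066 (quartiles -0.092 and 0.102), and over all 14941 probes read on all arrays it was 0.0014 (quartiles -0.093 and 0.095). In 44 of 44 genes the change was smaller than the wider of the ranges within a time point, as it was for 63 of the 67 member probes (94%) and 93.9% of all probes detected on 3 or more arrays. The lowest change was that of Hsp90ab1 and the highest that of Hsf2. Of the 44 genes, 7 were detected on 3 to 5 arrays, and in 7 of 7 more arrays detected the gene at the time point with the higher value, so that the filter on low values and the change share the same values there (Dnaja1, Dnajb4, Dnajc11, Dnajc14, Dnajc18, Hspa1b and Hspb1). Classes are therefore described over the 37 genes read on all 6 arrays, for which the median was -0.0075 (17 above 0, 20 below) and, relative to the median probe, ran from -0.027 to 0.071 under the scaling and background settings tried. It was 0.19 for DNAJA (Dnaja2 and Dnaja3), 0.13 for HSP70 (Hspa2, Hspa8 and Hspa9) and -0.23 for HSP90 (Hsp90aa1 and Hsp90ab1). At the brightest probes, the genes of each of these classes lay on one side of 0. Dnaja1, detected on 4 arrays and so left out, had -0.23, and a second probe of Dnaja3 had -0.038. Under the scaling and background settings, the median ran from 0.19 to 0.25 for DNAJA and from -0.28 to -0.15 for HSP90. For HSP70 it ran from 0.062 (linear scaling, where 1 of the 3 genes lay below 0) to 0.19. For DNAJB (0.015), DNAJC (-0.039), the small heat shock proteins (0.039), HSP110 (0.021), the chaperonin (-0.040) and the heat shock factors (-0.0075) it lay closer to 0, with genes on both sides, and apart from that of DNAJB these medians turned under some setting.

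**Figure D2:**
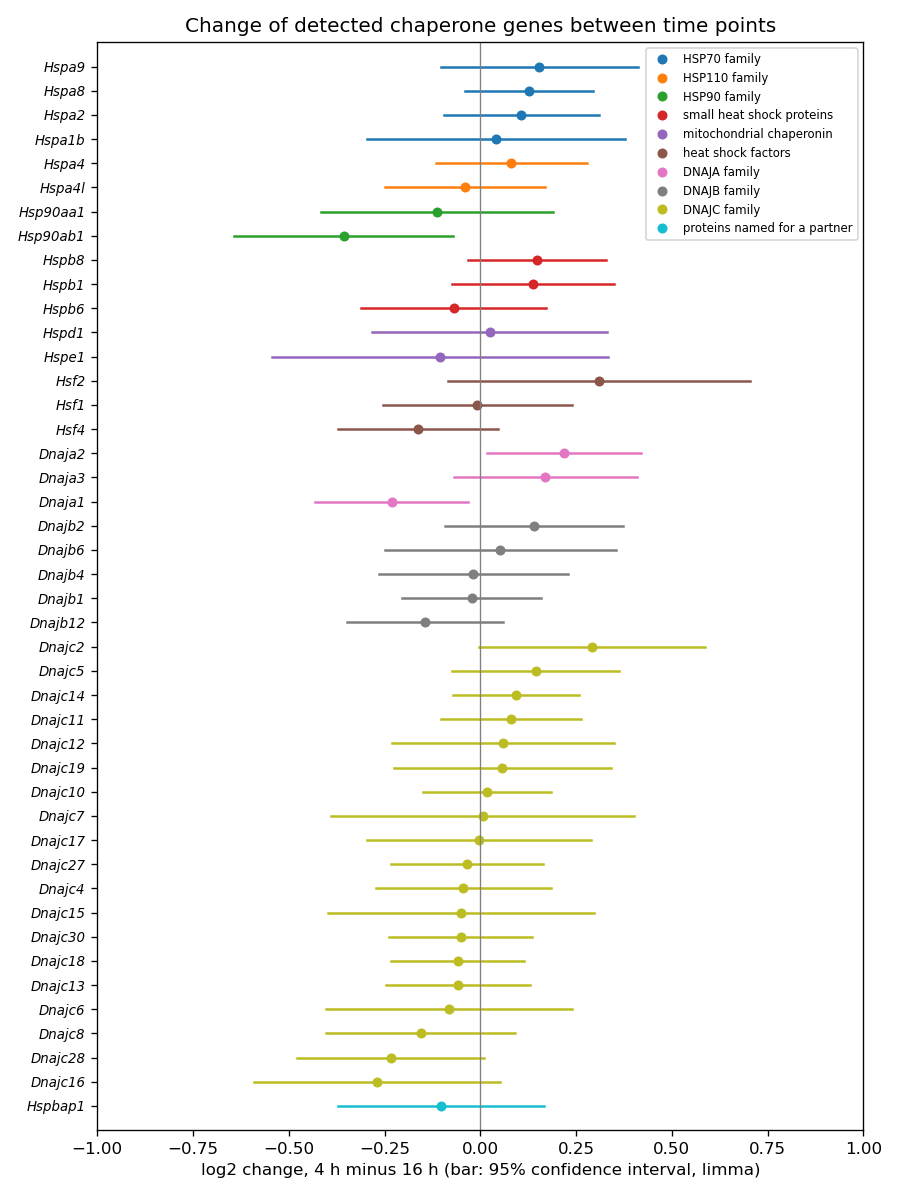
Log2 change (4 h minus 16 h) of the 44 member genes detected on 3 or more arrays, at the brightest probe, coloured by class; bars are the 95% confidence interval of the limma fit. Values run from -0.36 (Hsp90ab1) to 0.31 (Hsf2), and the few intervals that leave out 0 have adjusted p-values over 0.8; of the 24 genes checked under other scalings, Hspa8, Hspa1b, Hspb6, Hsf1 and Hspd1 turned their sign.

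In the HSP70 family, the brightest probe of Hspa8, the constitutive cytosolic HSP70, read 25170, 19601 and 21537 intensity units at 4 h and 17053, 16328 and 14433 at 16 h. After normalization these were 14.31, 14.19 and 14.30 against 14.21, 14.15 and 14.05 on the log2 scale. Replicate 2 at 4 h lay below replicate 1 at 16 h, so the time points overlapped. The change was 0.13 (SE 0.074, 95% CI -0.04 to 0.29, limma adjusted p = 0.931), and relative to the median probe it was -0.059 when arrays were scaled linearly. A further probe of Hspa8 read 13.30, 13.34 and 13.45 at 4 h against 13.24, 13.21 and 13.29 at 16 h, without overlap, with a change of 0.12 (adjusted p = 0.936). The remaining one changed by 0.10 (SE 0.19), and its values overlapped.

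Hspa1b, whose product is nearly identical to that of Hspa1a, was close to the noise. Its best probe read 28.2, -0.6 and 20.6 units at 4 h and 21.4, 8.5 and -2.0 at 16 h. No order of the time points can be read from these values. The fitted change of 0.04 (SE 0.15, adjusted p = 0.99) turned to -0.21, relative to the median probe, after median scaling or without between-array normalization, and the best probe of Hspa1a was detected on 2 arrays. Whether a probe reads both genes was not tested, since probe sequences were not used here.

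The mitochondrial HSP70, Hspa9, read 12.26, 12.41 and 12.69 (log2) at 4 h and 12.26, 12.43 and 12.21 at 16 h. Replicate 3 at 4 h stood above the other 5 arrays, which lay together. The change was 0.15 (SE 0.11, adjusted p = 0.953), and leaving out single arrays moved it between 0.04 and 0.24. Hspa2, an HSP70 best known from the testis, changed by 0.11 (SE 0.089, adjusted p = 0.959). In the HSP110 family, whose members exchange the nucleotide of HSP70, Hspa4 had a value of 0.08 (SE 0.087, adjusted p = 0.965) and Hspa4l one of -0.04 (SE 0.092, adjusted p = 0.983).

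Both HSP90 genes had values below 0, and neither passed the test. Hsp90ab1, the constitutive cytosolic HSP90, had, at its brightest probe, 5332, 5288 and 6634 units at 4 h and 5011, 6325 and 4845 at 16 h. Normalized to log2, these were 12.07, 12.29 and 12.52 against 12.48, 12.83 and 12.64. The value of replicate 3 at 4 h lay just above replicate 1 at 16 h, and the others were separated. The change of -0.36 (SE 0.13, 95% CI -0.64 to -0.07) had a limma adjusted p of 0.811 over all probes, and relative to the median probe it ran from -0.48 to -0.21 in the alternatives tried. Without that reference, the fitted change was 0.0058 after median scaling and 0.095 without between-array normalization, and the mean of the deposited intensities was 5751 at 4 h and 5394 at 16 h. Its direction below 0 is thus relative to the other probes. Other probes of Hsp90ab1 changed by -0.05 (SE 0.21) and -0.22 (SE 0.2).

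Hsp90aa1, the stress-inducible isoform, read 10.78, 10.64 and 10.95 (log2) at 4 h and 10.99, 11.11 and 10.60 at 16 h. Replicate 3 at 16 h was the lowest of the 6 arrays, below every array of 4 h. The change was -0.11 (SE 0.13, adjusted p = 0.968), and relative to the median probe it was -0.0087 without 16 h replicate 2, -0.27 without 16 h replicate 3 and -0.013 after median scaling. Another probe of the gene changed by -0.16 (SE 0.26), and the remaining one was detected on 1 array.

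**Figure D3:**
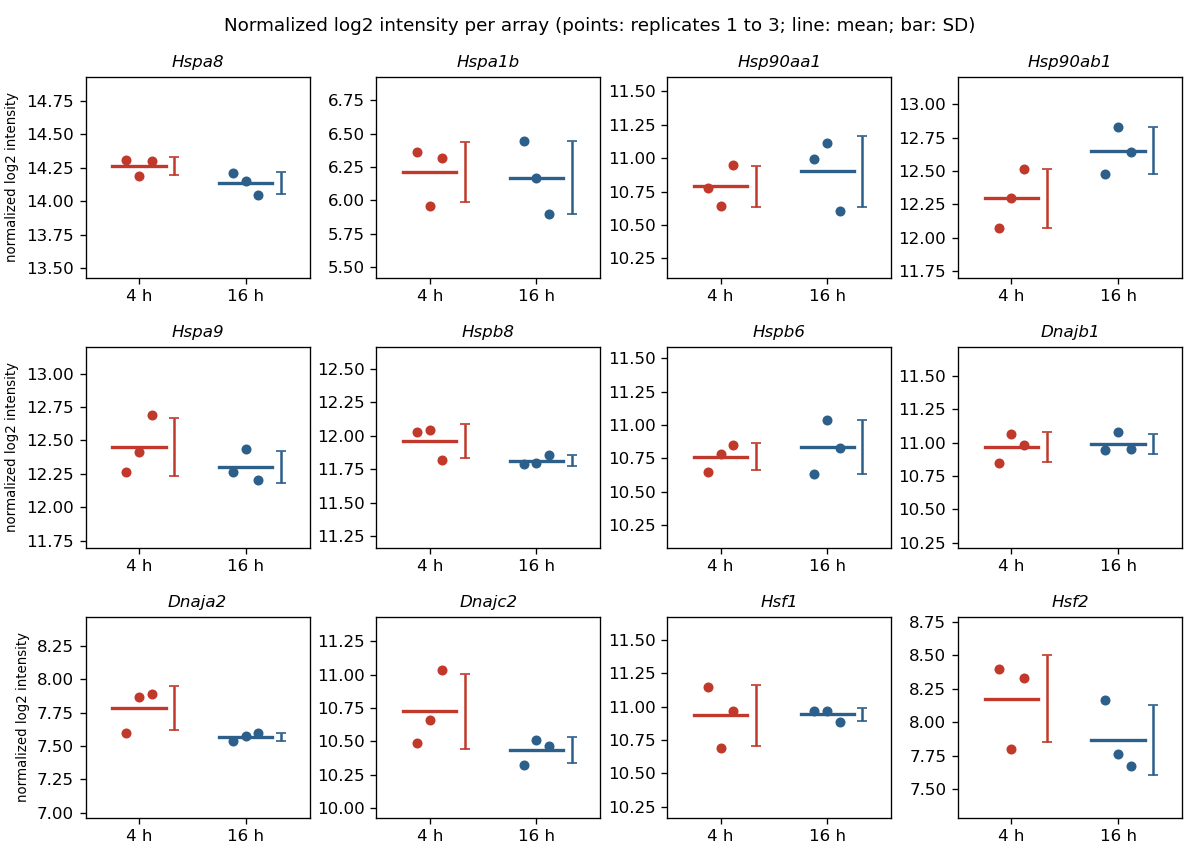
Normalized log2 intensity on each array for the brightest probe of 12 member genes at 4 h and 16 h (points, replicates 1 to 3 from left to right; line, mean; bar, SD, n = 3). Every panel spans the same width on the log2 scale; of the genes drawn only Dnaja2 has time points that do not overlap, with a change of 0.22.

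Among the small heat shock proteins, Hspb8, which works with BAG3 in autophagy of misfolded proteins, read 12.03, 12.04 and 11.82 (log2) at 4 h and 11.79, 11.80 and 11.86 at 16 h. Replicate 3 at 4 h fell within the 16 h values. The change was 0.15 (SE 0.08, adjusted p = 0.924), and a second probe gave 0.13 (SE 0.11). Hspb6 had a change of -0.07 (SE 0.11, adjusted p = 0.977), which, relative to the median probe, became 0.031 after median scaling. Hspb1, the stress-inducible HSP27, was detected on all 3 arrays of 4 h, at 17.2 to 30.8 units, but on 1 array of 16 h, at 18.4 units, and read 9.7 and 4.3 units on the others, under the limit. Its fitted change of 0.14 (SE 0.093, adjusted p = 0.948) thus rests on values at the noise limit at 16 h.

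Neither gene of the chaperonin pair that shares a promoter region passed the test. Hspd1 (HSP60) read 11.68, 11.87 and 12.17 (log2) at 4 h and 11.68, 12.06 and 11.91 at 16 h, a change of 0.02 (SE 0.14, adjusted p = 0.996). Its dimmer probe had a change of 0.17, and the mean over its probes was 0.097 relative to the median probe. Hspe1 (HSP10) read 11.49, 11.63 and 10.86 at 4 h and 11.20, 11.40 and 11.69 at 16 h, a change of -0.10 (SE 0.19, adjusted p = 0.981). The lowest Hspe1 value and the highest value at the brighter Hspd1 probe both came from replicate 3 at 4 h. Over the 7 of 8 mitochondrial members read on all arrays, changes ran from -0.10 to 0.17 with a median of 0.024. Relative to the median probe, that median was -0.035 under linear scaling and 0.093 under median scaling.

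Of the transcription factors, Hsf1 read 11.15, 10.69 and 10.96 (log2) at 4 h and 10.97, 10.97 and 10.89 at 16 h. The 4 h values lay on both sides of the 16 h values. The change was -0.01 (SE 0.11, 95% CI -0.25 to 0.24, adjusted p = 0.998), and its sign turned under median scaling, no between-array normalization and cyclic loess. Hsf2 read 8.40, 7.80 and 8.33 at 4 h and 8.17, 7.76 and 7.67 at 16 h, a change of 0.31 (SE 0.17, adjusted p = 0.924). A second, dimmer Hsf2 probe had a change of -0.15 (SE 0.11). Hsf4, known from the lens, changed by -0.16 (SE 0.092, adjusted p = 0.927), and Hspbap1, a partner of HSPB1, by -0.10 (SE 0.12, adjusted p = 0.967).

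The targets known to be induced by heat through HSF1 were taken as a list of 11 genes, of which 10 are members, 9 were detected on 3 or more arrays and 6 on all (Dnajb1, Hspa4l, Hspa8, Hsp90aa1, Hspd1 and Hspe1). The changes of these 6 ran from -0.11 to 0.13 (Hspa8, described above as constitutive but also listed here) with a median of -0.031. Relative to the median probe, that median ran from -0.066 to 0.031 under the scaling and background settings tried. Of the 6, 0 had an unadjusted p under 0.05 in the limma fit (against 10.9% of all probes read on all arrays). Of the 9 detected on 3 or more arrays it was 1, Dnaja1 (11.1%, against 10.3% of all such probes). Dnajb1, the classic HSP40 and one of these targets, read 10.85, 11.07 and 10.98 (log2) at 4 h and 10.94, 11.08 and 10.95 at 16 h. Its values intermixed, with a change of -0.02 (SE 0.08, 95% CI -0.20 to 0.16, adjusted p = 0.989). Dnaja1, another of these targets, was dim, at 4.4 to 25.2 units over the 6 arrays, and was detected on 1 array of 4 h and 3 of 16 h. Its change was -0.23 (SE 0.088, adjusted p = 0.868), and relative to the median probe it was -0.42 at an offset of 16, -0.45 after median scaling and -1.42 with no background correction.

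Within the DNAJA class, which shares the domain layout of bacterial DnaJ, Dnaja2 read 7.60, 7.87 and 7.89 (log2) at 4 h and 7.54, 7.57 and 7.59 at 16 h. The lowest 4 h value lay barely above the highest 16 h value. The change was 0.22 (SE 0.089, adjusted p = 0.889). Its other probes were dim. One was read on 3 arrays of 4 h and 1 of 16 h, and the other on none, so no change is taken from them. In the DNAJB class, Dnajb2, which binds ubiquitinated clients, had a change of 0.14 (SE 0.1, adjusted p = 0.953). Dnajb12 of the endoplasmic reticulum membrane had one of -0.14 (SE 0.09, adjusted p = 0.943). Dnajb6, a suppressor of aggregation whose promoter element is printed above, gave 0.05 (SE 0.13) and 0.01 (SE 0.12) at its brighter probes and -0.14 (SE 0.067, adjusted p = 0.919) at the dimmest, without overlap.

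The DNAJC class holds J-domain proteins of otherwise unrelated build. Dnajc2, a ribosome-associated partner of HSP70, read 10.49, 10.66 and 11.03 (log2) at 4 h and 10.33, 10.51 and 10.47 at 16 h. Replicate 1 at 4 h lay between values of 16 h, and the change was 0.29 (SE 0.13, adjusted p = 0.919), against 0.10 (SE 0.11) at another probe, and it ranged from 0.14 to 0.41 when single arrays were left out. Dnajc16 had a change of -0.27 (SE 0.14, adjusted p = 0.922) at one probe and of -0.0020 (SE 0.11) at another. Dnajc8, a nuclear protein tied to splicing, changed by -0.16 (SE 0.11, adjusted p = 0.949), and by -0.22 (SE 0.072, adjusted p = 0.756) without overlap at a further probe. For Dnajc19, a protein of the mitochondrial inner membrane, the bright probe gave 0.06 (SE 0.12, adjusted p = 0.983). A probe near the limit, at 13.1 to 30.0 units, gave -0.24 (SE 0.072, adjusted p = 0.706) without overlap.

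The member probe with the smallest p belonged to Dnajc12, a cochaperone of aromatic amino acid hydroxylases. Its intensity was 668, 464 and 487 units at 4 h and 298, 233 and 239 at 16 h. On the normalized log2 scale the lowest 4 h value, 8.80, lay above the highest 16 h value, 8.69, and the change was 0.42 (SE 0.12, 95% CI 0.15 to 0.70, adjusted p = 0.648). The brighter probe of Dnajc12 read 9.55, 9.43 and 9.21 at 4 h and 9.38, 9.08 and 9.55 at 16 h. There the time points overlapped, and the change was 0.06 (SE 0.13, adjusted p = 0.983). Of J-domain proteins that act on vesicles, Dnajc5 (cysteine string protein, on secretory vesicles) had a change of 0.14 (SE 0.096, limma adjusted p = 0.948). Another probe of Dnajc5 read on all arrays had 0.045. Dnajc6 (auxilin, which uncoats clathrin) had a change of -0.08 (SE 0.14, limma adjusted p = 0.979), against 0.013 at another probe read on all arrays.

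Probes of the same gene could be compared for 19 member genes with 2 or more probes detected on all arrays. Of these, 6 (31.6%) had probes on both sides of 0 (Dnaja3, Dnajb6, Dnajc19, Dnajc27, Dnajc6 and Hsf2), against 41.6% of 2966 such genes on the array. Among these 6, the difference between probes ran from 0.04 in Dnajc27 to 0.46 in Hsf2. Several probes differed more between the arrays rich and poor in 18S ribosomal RNA than between the time points. The difference of arrays rich in 18S from the others was estimated in a limma fit that also held the time point. It is not a plain difference of means. This estimate was 0.52 for one probe of Hspa8, 0.57 and 0.55 for the dimmer probes of Hsp90ab1, 0.66 for the dimmer probe of Hspd1 and 0.51 for the brighter probe of Hsf2. It was -0.71 for the dimmer probe of Hsp90aa1 and -0.40 for Hspe1. For the brightest probes of Hspa8 and Hsp90ab1 it was 0.11 and -0.13. The median size of this difference was 0.14 over member probes read on all arrays and 0.12 over all probes read on all arrays.

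With the 18S separation as a block in the limma fit, the change of Hsf2 was 0.14 (adjusted p = 0.899), that of Hsp90ab1 was -0.31 at the brightest probe (adjusted p = 0.814) and -0.40 at the dimmest (adjusted p = 0.589), and that of Hspe1 was 0.03. Hspa8 had 0.09 at the brightest probe (adjusted p = 0.954), and the Dnajc12 probe with the smallest p had 0.39 (adjusted p = 0.654). What sets these arrays apart was not tested.

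**Figure D4:**
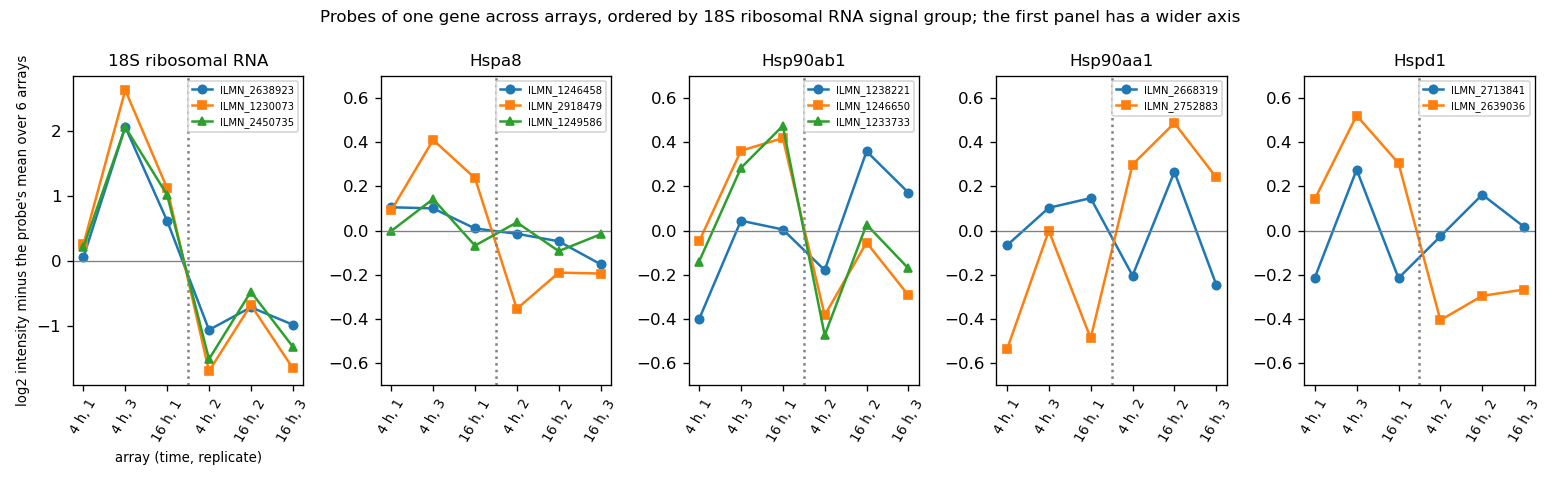
Normalized log2 intensity minus the mean of the probe over the 6 arrays, for probes of 18S ribosomal RNA and for every probe read on all arrays of Hspa8, Hsp90ab1, Hsp90aa1 and Hspd1 (lines join the values of one probe; the dotted line parts the arrays rich in 18S on the left from the others). In a limma fit that also held the time point, one probe of Hspa8, both dimmer probes of Hsp90ab1 and the dimmer probe of Hspd1 follow the 18S separation by 0.52 to 0.66. The dimmer probe of Hsp90aa1 runs against it by 0.71.

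Partners of the members under other names were described from lists, in which 0 genes passed the adjusted threshold of the limma fit and 4 of the 41 detected cochaperones and subunits of TRiC and prefoldin (Ptges3, Cdc37l1, Bag3 and Bag5) had an unadjusted p under 0.05 (9.76%, against 10.3% of all detected probes). Of the 16 HSP90 cochaperones, all read on every array, the median change was -0.058. Ptges3 (p23, which stabilizes the closed HSP90 dimer) had a value of 0.29 (SE 0.1, limma adjusted p = 0.811) and Cdc37l1 one of -0.34 (SE 0.1, adjusted p = 0.689), each without overlap between the time points. Stip1 (HOP, which bridges HSP70 and HSP90) had -0.09 (SE 0.14) and Ahsa1, an activator of the HSP90 ATPase, -0.15 (SE 0.1). Of the 12 HSP70 cochaperones, also read on every array, the median was 0.028. Bag3 and Bag5, nucleotide exchange factors of HSP70, had changes of 0.25 (SE 0.1, adjusted p = 0.878) and 0.22 (SE 0.079, adjusted p = 0.822).

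The 8 subunits of the cytosolic chaperonin TRiC had changes of -0.07 to 0.12 with a median of 0.018. Prefoldin, which hands actin and tubulin to TRiC, had 5 of 6 subunits on the array, at -0.14 to -0.03 with a median of -0.091. The chaperones of the endoplasmic reticulum that were left out by name had changes of -0.12 (Dnajb9) to 0.13 (Hspa5), with a median of 0.061 over 5 genes. Besides Hsph1, the relatives of the members that were found under older names and detected on all 6 arrays were Dnajc21 (0.13, SE 0.14), Dnajc24 (0.01, SE 0.14), Dnajc25 (0.05, SE 0.10) and Hspbp1, an exchange factor of HSP70 (0.09, SE 0.21).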

How the data were processed

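Total RNA of 6 samples was hybridized to a mouse WG-6 V2 BeadChip. The authors deposited linear intensity values, 1 for each probe on each array, from which background had been subtracted and which had not been normalized between arrays. Here normexp (offset 50) was followed by quantile normalization and a log2 transform. A single fit of every probe was made in limma 3.58.1 (R 4.3.3), with no term other than the time point, and p-values were adjusted by Benjamini-Hochberg over all 45281 probes (two-sided, threshold 0.05). The offset shrinks changes of dim probes, and quantile normalization removes a change shared by most transcripts. The noise limit of an array is the 99th percentile of its values below 0 with the sign turned, since no detection p-values were used. The probe of highest mean stood for its gene, which was given a change if it exceeded that limit (was detected) on 3 or more arrays. Intensities of different probes are not comparable. Arrays carry no counts, so their number limits the precision, and an exact permutation test of 3 against 3 cannot give a p under 0.1.

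The members, gene lists and the 18S separation were chosen with earlier results of these data known. Named genes are the 5 markers, members with an unadjusted p under 0.05 detected on 3 or more arrays, the largest change of each class in each direction, the heat shock factors and, of each partner list, such genes with up to 2 more; other members were named after their values had been seen, as was the search for the pair of heat shock units. Alternatives were no background correction, offset 16, median scaling, cyclic loess, linear scaling, no normalization, a noise filter, trend and robust variance, array weights, blocks on replicate or 18S, the mean over probes, and leaving out each array. For single genes they were run for the 24 named members, not for Hsph1 and the partner genes, which are no members. Members named later, among them Hspa2, Hspb1, Dnajb1, Dnajb6, Dnajc5 and Dnajc6, were also not covered gene by gene. Class medians, their restriction to genes read on all arrays and their values under each scaling were added after the data had been seen. The procedure was tested on simulated data whose planted changes were larger than any member change in the main fit. That test does not show how well smaller changes are found. Slide and scan were not given in the sources used here.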

Additional observations from a re-analysis of the deposited data

How the results depend on the processing

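Gene values in this section are log2 changes minus the median change of the 14941 probes read on all arrays, which was 0.30 after median scaling and 0.39 without between-array normalization. The count of member probes called was 0 under the alternatives run per probe, except median scaling (6 higher at 4 h, 0 lower, 5.04% against 1.84% of all probes) and no normalization (10 higher, 0 lower, 8.4% against 5.1%). With the mean over probes of a gene, 0 of 66 member genes were called (2 of all 30854) and 2 had an unadjusted p under 0.05 (3.03% against 5.77%). The 7 member probes at an unadjusted p under 0.05 (5.88%, against 5.42% of all probes) became 30 with median scaling (25.2% against 19.1%), 41 without normalization (34.5% against 26.6%), 3 with the noise filter (4.48% against 5.92%) and 5 to 11 when single arrays were left out, with 11 (9.24%) reached without 4 h replicate 3 (5.84% of all probes) and without 16 h replicate 1 (7.11%). The 9 probes without overlap (7.56% against 10.9%) became 29 (24.4% against 21.9%), 36 (30.3% against 31.2%) and, with single arrays left out, 18 to 25 (15.1% to 21% against 19.4% to 23%), where fewer arrays overlap less by construction. The median change of detected members lay between -0.025 and 0.015 under the alternatives run for it. Same-numbered samples did not all deviate together (correlations 0.25, 0.173 and -0.493). So few values cannot decide whether the numbers mark a pairing, which the labels do not state. The replicate block in the limma fit gave 0 calls and 11 probes at an unadjusted p under 0.05 (9.24%, against 5.5% of all probes). The noise filter, the variance setting and the replicate block leave a change as it is, and no normalization gives that of median scaling. Of the 330 values for 24 named genes that the other alternatives could move, 303 kept their direction, and 14 genes never turned. Values that turned were Hsf1 0.091, Hspa1b -0.21 and Hspb6 0.031 (median scaling, and no normalization), Hsf1 0.0024 (cyclic loess), Hspa8 -0.059 and Hspd1 -0.035 (linear scaling), Hspd1 -0.012 (array weights), Hspa1b -0.092, Hspa4l 0.024 and Hspe1 0.027 (18S block), and Dnajc19 -0.081 (mean over probes). Leaving out single arrays gave Dnajc12 -0.070 to 0.16, Hspa1b -0.10 to 0.18, Dnajc19 -0.046 to 0.21, Hsf1 -0.12 to 0.11, Hspbap1 -0.22 to 0.019, Hspd1 -0.11 to 0.13, Hspe1 -0.26 to 0.13, Hspb6 -0.17 to 0.030 and Hspa4l -0.11 to 0.033. Of genes that kept their sign, it gave Hsp90aa1 -0.27 to -0.0087, Hsp90ab1 -0.48 to -0.24, Hspa8 0.077 to 0.17, Dnajb2 0.059 to 0.24, Dnajc16 -0.41 to -0.16, Dnajc8 -0.29 to -0.086, Hsf2 0.19 to 0.50, Hsf4 -0.24 to -0.078, Hspa4 0.020 to 0.14, Dnajb12 -0.22 to -0.091 and Hspb8 0.11 to 0.22. Of these and others that never turned, the mean over probes took Dnaja1 to -0.14, Dnaja2 to 0.12, Dnajc16 to -0.14, Dnajc2 to 0.14, Hsf2 to 0.081 and Hsp90ab1 to -0.21, median scaling took Dnajb12 to -0.048 and Dnajc8 to -0.059, linear scaling took Hspb8 to 0.085 and Hspa9 to 0.062, and no background correction took Hsf4 to -0.30. The cause was not tested. Dnaja2, Dnajb2, Hspa4 and Hspb8 passed the adjusted threshold after median scaling, and with Dnajc2 also without normalization, where the whole array was higher at 4 h. Few arrays limit the precision, and dim members such as Hspa1b and Dnaja1 lie close to background.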
